A study of Homo sapiens with 6 samples.

Results

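Caspases are cysteine proteases made as inactive precursors, and this group holds 4 caspase genes and 4 genes whose products decide whether caspases are switched on. Expression was measured in BCWM1, a human line established from Waldenström macroglobulinemia, which is a lymphoma whose B cells and plasma cells secrete IgM. The 6 microarrays fall into 3 samples labelled parental and 3 labelled mutated. All 6 are total RNA of the same line, copied into biotin-labelled cRNA. The series title names the change as C1013G in CXCR4, which encodes the chemokine receptor for CXCL12. The sources used here do not say how the mutated cells were made, how many clones they stand for or whether a vector control existed. Nor is it stated that samples within a group came from separate cultures, so the p-values reflect the spread among these samples only, and part or all of it may be technical.

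The members are CASP1, CASP8, CASP9, CASP10, CFLAR, FADD, XIAP and DIABLO. Every probe set that the platform annotation assigns to 1 of these symbols alone was taken, which gave 38 of the 54613 probe sets on the array. CFLAR has 14 of them, XIAP 7, CASP1 5, CASP10 4, CASP8 and CASP9 3 each, and FADD and DIABLO 1 each. One further probe set is annotated to CASP1 and a second gene and was left out. Probe sets of 1 gene read the same transcripts in the same samples and are not replicates of each other.

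In the extrinsic pathway of cell death, a ligand-bound death receptor recruits the adaptor FADD, which in turn gathers the initiator caspases CASP8 and CASP10, and the caspase-like protein c-FLIP, encoded by CFLAR, joins the same complex and modulates their activation. In the intrinsic pathway, cytochrome c released from mitochondria lets APAF1 activate the initiator CASP9. XIAP binds and inhibits CASP9 and the executioner caspases, and DIABLO (also called SMAC), released from the same mitochondria, displaces XIAP from them. CASP1 belongs to another branch: inflammasomes activate it, and it matures the cytokines IL-1beta and IL-18 and cuts gasdermin D. In B cell lymphomas c-FLIP and XIAP are known for protecting cells from death receptor and mitochondrial signals.

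The members did not move together. CASP1 rose in mutated cells on each of its 5 probe sets, CFLAR fell on 11 of its 13 tested probe sets, and XIAP fell by a smaller amount on 5 of 7. On the brightest probe set of each, CASP8, CASP10, CASP9, FADD and DIABLO did not pass the test. Changes are given as differences of log2(intensity + 16), mutated minus parental, and a call is an adjusted p under 0.05 from limma with Benjamini-Hochberg adjustment over all 32768 tested probe sets. Of the 38 probe sets 34 passed the filter on dim values and were tested. Of these, 6 were called higher and 16 lower, and 12 did not pass. Over all tested probe sets 47.5% were called, 30.9% higher and 16.6% lower. CFLAR alone accounts for 11 of the 16 lower calls, so this count mostly describes 1 gene. Counted by gene, with each gene taken on its brightest tested probe set, 1 of 8 was called higher and 2 lower, against 49% of 13644 genes called, 30.1% higher and 18.9% lower. The share of member genes called was thus no larger than that of genes at large. The groups did not overlap in 3 of the 8 genes, against 61.2% of all tested genes. The median log2 change of the 8 genes was −0.057, beside 0.038 over all tested genes, and their median absolute change was 0.10, beside 0.21.

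**Figure D1:**
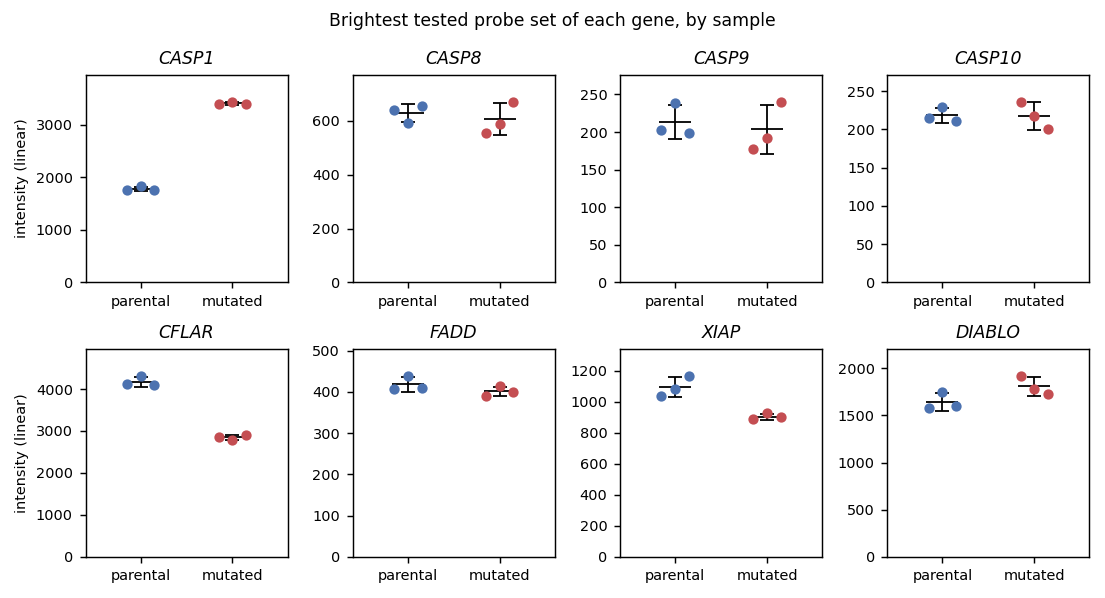
Intensity on a linear scale (vertical axis, from 0) of the brightest tested probe set of each of the 8 genes in the 3 parental (blue) and 3 mutated (red) samples; black bars give the mean and SD. The groups lie apart in CASP1 (1753 to 1831 against 3392 to 3442), CFLAR (4102 to 4313 against 2790 to 2900) and XIAP (1035 to 1166 against 886 to 926), and overlap in the other 5.

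B cell markers were bright in both groups, while 4 of 7 plasma cell markers were lower in mutated cells. Median intensity was 28.46 to 29.13 on the parental and 30.93 to 31.83 on the mutated arrays. The summed intensity of 6 measured B cell markers of 7 listed was 21752 to 22371 in parental and 21053 to 21914 in mutated samples, most of it from MS4A1 and PAX5. Of the 6, CD79A (0.23) and CD79B (0.63) were called higher and CD22 (−0.41) and BLK (−1.57) lower. The summed intensity of 7 plasma cell markers was 13666 to 14297 in parental and 10356 to 11286 in mutated samples. Of the 7, TNFRSF17 (−1.89), PRDM1 (−1.59), SDC1 (−0.87) and CD38 (−0.65) were called lower and MZB1 (0.48) higher. XBP1 (−0.10) and IRF4 (−0.020) did not pass. The part of these marker shifts in the results below was not tested. All 6 listed T cell markers together gave at most 166.1 in any sample, and 5 measured myeloid markers of 7 at most 69.45. CD3D, CD3G, CD14 and LYZ were each at a mean intensity under 10 in both groups. The brightest were CD247 (66.8 in parental and 77.6 in mutated cells, groups apart), CD2 (31.4 and 43.9), MPO (25.9 and 24.7) and CSF1R (25.7 and 22.6). None of these passed the test. CXCR4 fell on its 3 probe sets, by 0.15 to 0.57 on the log2 scale. On the brightest, its change of −0.15 had an adjusted p of 0.030 (limma), which was 0.051 to 0.089 in the 6 fits that each left out 1 sample, 0.068 with no filter on dim probe sets and 0.070 with the replicate number as a block.

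CASP1 encodes the protease that cuts pro-IL-1beta and pro-IL-18 into their active forms. Its brightest probe set, 209970_x_at, read 1753, 1831 and 1768 in the parental samples and 3396, 3442 and 3392 in the mutated samples. The lowest mutated value was far above the highest parental value, and neither group spanned more than a narrow range. The linear mean was 1.91 times higher in mutated cells, a log2 change of 0.93 (SE 0.046; limma, adjusted p = 1.6e-05). The dimmest, 206011_at, is the probe set with the plain suffix _at, and read 223, 252 and 231 in the parental against 644, 616 and 599 in the mutated samples. That probe set gave the largest ratio, 2.63, with a log2 change of 1.34 (SE 0.061; limma, adjusted p = 1.2e-05). The other 3 gave changes of 0.95 (211366_x_at), 1.16 (211368_s_at) and 1.29 (211367_s_at), so the size of the change ran from 0.93 to 1.34 depending on the probe set. The groups did not overlap on any of the 5, and their 95% intervals ran from 0.82 to 1.49 in all. In bulk RNA a higher level per cell and a larger share of expressing cells cannot be told apart. For comparison, the groups did not overlap in 57.8% of all tested probe sets.

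The gene beside CASP1 on chromosome 11, CARD16, encodes a short decoy protein that resembles the N-terminal recruitment domain of caspase-1, and probes that match both transcripts cannot tell them apart. On its brighter probe set CARD16 rose by 1.76 on the log2 scale, from 147 ± 11.9 to 537 ± 35.2 (SD, n = 3). Its other, dim probe set fell, from 28.1 ± 1.39 to 19.6 ± 3.95 (SD, n = 3), so the direction of CARD16 itself is uncertain. CASP4, the caspase that senses bacterial lipopolysaccharide inside the cell and lies on the other side of CASP1 with CASP5 between them, rose from 675 ± 5.78 to 1197 ± 39.03 (SD, n = 3), and by 0.57 on its second probe set. Within 5 genes on each side of CASP1, 8 genes of 11 (CASP1 included) had a tested probe set. Beyond the caspase cluster KBTBD3 rose by 0.29 (0.13, adjusted p = 0.15 with limma, under quantile normalization), while MSANTD4 (−0.063), DDI1 (−0.11), PDGFD (0.26) and DYNC2H1 (0.045) did not pass.

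By Euclidean distance over the 6 samples, after subtracting each gene's parental mean, the 3 genes most like CASP1 among 13643 were SIT1 (distance 0.040), CEP70 (0.045) and MINDY2 (0.063). SIT1 encodes a transmembrane adaptor of lymphocytes. Its intensity was 750, 767 and 757 in the parental and 1460, 1498 and 1466 in the mutated samples. With 2 groups of 3 samples, likeness of this kind mostly reflects a group difference of equal size.

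CFLAR encodes c-FLIP, which has the paired death effector domains of caspase-8 but no protease activity of its own. On its brightest probe set, 209939_x_at, the intensity was 4116, 4313 and 4102 in the parental samples and 2862, 2790 and 2900 in the mutated samples. Every mutated value was below every parental value. The mean was 4177 ± 118 in parental and 2850 ± 55.9 in mutated cells (SD, n = 3). The log2 change was −0.55 (SE 0.048; limma, adjusted p = 2.0e-04). Further probe sets, 10 in all, fell too, from −0.43 on 239629_at to −0.79 on 211317_s_at. Among them 208485_x_at read 443, 441 and 430 in the parental and 262, 256 and 233 in the mutated samples, a change of −0.77. Of the 11 only 239629_at has the plain suffix _at. The other 10 end in _s_at or _x_at, which mark probes that may also read other transcripts or other sequences. How far they do so was not analysed here. The intensity on 239629_at was 590, 610 and 596 against 445, 435 and 439. Here too the groups were apart, with means of 599 ± 10.5 and 440 ± 5.25 (SD, n = 3).

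Not every CFLAR probe set showed the fall. On 235427_at the intensity was 106, 102 and 106 in the parental and 117, 102 and 111 in the mutated samples, a log2 change of 0.060 with a 95% interval of −0.085 to 0.21. That interval does not reach the change of any of the 11 that fell. On the dim 214618_at the change was 0.034 with a wide interval of −0.36 to 0.43. The last one, 217654_at, stayed under 16 in every sample and was not tested. Which CFLAR transcripts each probe set reads was not analysed here.

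**Figure D2:**
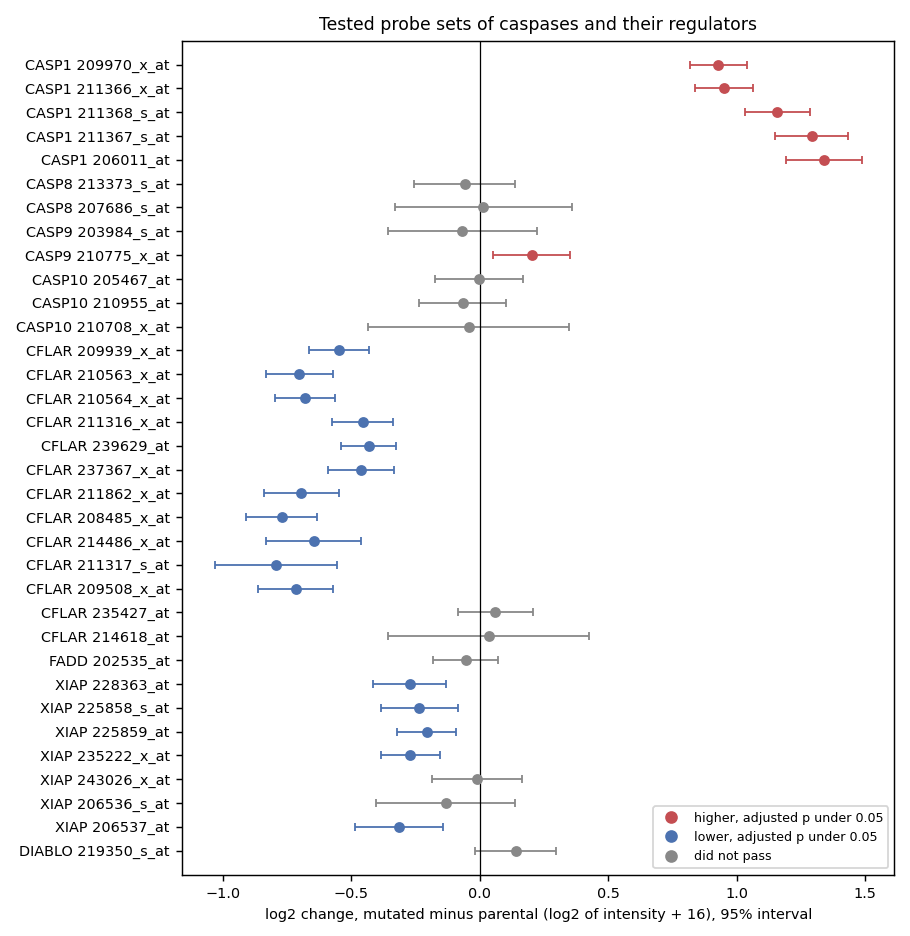
Log2 change (mutated minus parental, horizontal axis) with its 95% interval from limma for each of the 34 tested probe sets, grouped by gene and ordered by brightness within a gene. The 5 CASP1 probe sets lie between 0.93 and 1.34 and 11 of the CFLAR probe sets between −0.79 and −0.43, while those of CASP8, CASP10 and FADD lie within 0.07 of 0.

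CFLAR, CASP10 and CASP8 lie next to each other on chromosome 2, in that order among the protein-coding genes of the RefSeq table. CASP10, an initiator caspase that shares its adaptor with CASP8, read 214, 229 and 211 in the parental and 236, 218 and 200 in the mutated samples on its brightest probe set. The groups overlapped fully, with a log2 change of −0.0034 and a 95% interval of −0.18 to 0.17. Its other tested probe sets gave −0.067 (210955_at) and −0.044, and neither passed. With quantile normalization, however, 210955_at was called lower (−0.22; limma, adjusted p = 0.035). CASP8, the initiator that death receptors use first, read 640, 594 and 657 in the parental and 555, 590 and 671 in the mutated samples. Again the ranges overlapped, with a change of −0.059 (95% interval −0.26 to 0.14), and 0.014 (−0.33 to 0.36) on its second tested probe set. A fall of the size measured for CFLAR on its brightest probe set lies outside the intervals of the brightest CASP10 and CASP8 probe sets, although smaller changes in these genes remain possible at this precision.

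Each array's log2 value of CFLAR minus that of CASP8 was 2.66, 2.83 and 2.61 in the parental and 2.33, 2.21 and 2.08 in the mutated samples. This difference is one of probe sets and does not compare the abundance of both transcripts. It was lower by 0.49 in mutated cells, from 2.70 ± 0.11 to 2.21 ± 0.12 (SD, n = 3), lower in every mutated sample than in any parental one, with an exact two-sided permutation p of 0.1. That is the smallest p that 3 against 3 samples allow, and the pair was picked with its values known.

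Around the 3 genes, 11 of 13 neighbouring genes (they included) had a tested probe set. The other genes called here all went up: STRADB (0.63), which encodes a pseudokinase that activates LKB1, the replication origin gene ORC2 (0.41), NIF3L1 (0.32), TMEM237 (0.30) and PPIL3 (0.24). CFLAR was the one gene of the 11 called lower, and 5 were called higher. For comparison, 30.1% of all tested genes were called higher and 18.9% lower. NDUFB3 (−0.031), directly beside CFLAR, did not pass, nor did HYCC2 (0.088) or TRAK2 (0.11).

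**Figure D3:**
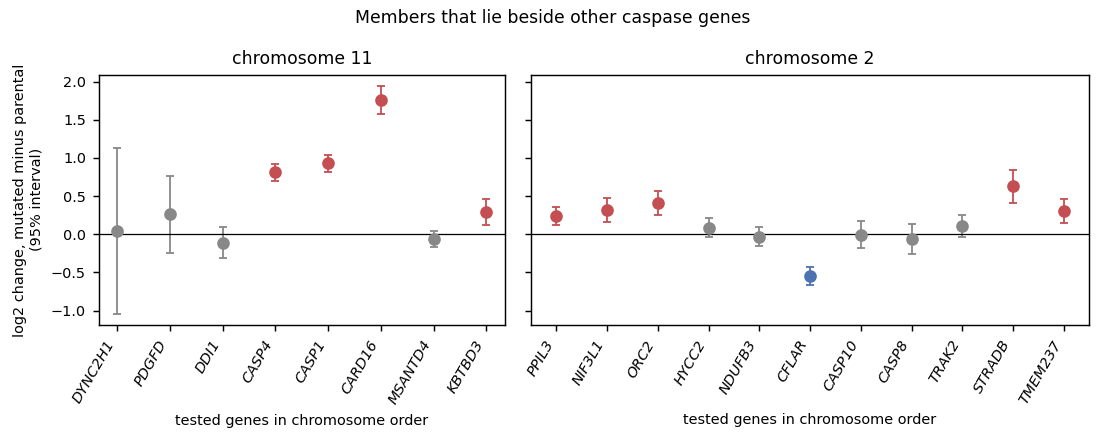
Log2 change (mutated minus parental, vertical axis) with its 95% interval for tested genes in chromosome order around CASP1 (chromosome 11) and around CFLAR, CASP10 and CASP8 (chromosome 2); red is called higher, blue lower, grey did not pass. CASP4, CASP1 and CARD16 stand at 0.81, 0.93 and 1.76, and CFLAR at −0.55 lies beside CASP10 and CASP8 near 0.

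The bases upstream of the start are shown for CFLAR and XIAP, the 2 members called lower, and for CASP8, the neighbour of CFLAR that did not pass. They are the 250 bases before each gene's annotated start in RefSeq, build GRCh38.p14, read 5′ to 3′ along the gene's own strand. CFLAR is at chr2:201118466-201118715, XIAP at chrX:123859458-123859707 and CASP8 at chr2:201233213-201233462, all on the plus strand. Capitals mark any match to the 5 motifs searched.
CFLAR: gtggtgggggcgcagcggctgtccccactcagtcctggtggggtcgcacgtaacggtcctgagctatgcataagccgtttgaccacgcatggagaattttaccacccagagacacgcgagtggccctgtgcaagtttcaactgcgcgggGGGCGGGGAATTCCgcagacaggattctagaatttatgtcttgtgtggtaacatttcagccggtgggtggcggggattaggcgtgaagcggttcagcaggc
XIAP: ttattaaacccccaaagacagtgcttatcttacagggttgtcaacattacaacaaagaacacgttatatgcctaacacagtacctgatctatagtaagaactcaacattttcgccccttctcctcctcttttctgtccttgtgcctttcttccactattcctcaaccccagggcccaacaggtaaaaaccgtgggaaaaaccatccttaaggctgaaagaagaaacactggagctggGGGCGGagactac
CASP8: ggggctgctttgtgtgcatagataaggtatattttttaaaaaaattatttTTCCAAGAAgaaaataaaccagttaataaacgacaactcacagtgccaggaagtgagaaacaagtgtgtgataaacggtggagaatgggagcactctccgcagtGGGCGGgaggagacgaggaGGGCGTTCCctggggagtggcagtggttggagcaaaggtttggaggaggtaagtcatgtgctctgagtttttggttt
The motifs, each searched on both strands, were GGGNNTTCC (kappaB), AANNGAAA (the core of the IRF motif), TTCNNNGAA (STAT), CACGTG (the E-box) and GGGCGG (the GC box). The forms of the kappaB and IRF motifs were chosen after matches to longer or looser forms had been seen. CFLAR holds a kappaB match, GGGAATTCC, from −96 to −88 relative to the start, which shares its first base with a GC box. CASP8 holds GGGCGTTCC, from −77 to −69, as well as the STAT match TTCCAAGAA from −200 to −192. XIAP holds a GC box and none of the other 4. Of 27305 promoter windows of this length, 5.81% hold the kappaB motif, 20.6% the IRF core, 6.78% the STAT motif, 6.49% the E-box and 42.3% the GC box. Windows were matched for 6 members, namely CASP8, CASP9, CFLAR, FADD, XIAP and DIABLO. Each of the 6 holds a GC box, and none holds the IRF core or the E-box. Windows of CASP1 and CASP10 were not matched. The window of CASP4, which is not a member and rose, was searched as well. It holds 3 matches to the IRF core and 1 GC box. Of its bases 38.0% are G or C, against a median of 58.0% over the promoter windows searched. The share with the IRF core among windows of like base content was not computed. CFLAR, which fell, and its neighbour CASP8, which did not pass, both hold kappaB letters, and a match describes letters only.

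FADD, the adaptor between death receptors and these caspases, has 1 probe set. It read 406, 438 and 409 in the parental and 391, 413 and 400 in the mutated samples. The ranges overlapped, with a log2 change of −0.055 and a 95% interval of −0.18 to 0.072.

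XIAP encodes a direct inhibitor of caspases and a ubiquitin ligase. Its brightest probe set, 228363_at, read 1035, 1083 and 1166 in the parental and 886, 926 and 898 in the mutated samples. The groups did not overlap, with means of 1095 ± 66.0 and 903 ± 20.4 (SD, n = 3). The log2 change was −0.27 (SE 0.059; limma, adjusted p = 0.0096). The fall was smaller than that of CFLAR but present on 4 more probe sets. On 235222_x_at the intensity was 230, 239 and 235 in the parental and 190, 187 and 198 in the mutated samples, also with no overlap (change −0.27). On 225859_at the change was −0.21 and on the dim 206537_at −0.31. On 225858_s_at it was −0.24 (limma, adjusted p = 0.021). That last call was lost without parental replicate 2 (adjusted p = 0.058) or 3 (0.061) and without mutated replicate 1 (0.065) or 2 (0.066). The other 2 probe sets did not pass. On 243026_x_at the change was −0.012 (95% interval −0.19 to 0.16), with 160, 151 and 139 against 159, 138 and 148. On 206536_s_at it was −0.13 with an interval of −0.41 to 0.14.

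DIABLO, the mitochondrial antagonist of XIAP, read 1577, 1747 and 1596 in the parental and 1919, 1776 and 1728 in the mutated samples on its only probe set. The highest parental value lay above the lowest mutated one. The log2 change was 0.14 (95% interval −0.019 to 0.30; limma, adjusted p = 0.13), and it passed when limma's trend and robust options were used (adjusted p = 0.030). Within each array the log2 value of XIAP minus that of DIABLO was −0.60, −0.68 and −0.45 in parental and −1.10, −0.93 and −0.93 in mutated samples. It was lower by 0.41 in mutated cells, with an exact two-sided permutation p of 0.1, the smallest possible. The 2 within-array pairs had adjusted p of 0.1 each in this permutation test. With 3 against 3 samples neither could have passed 0.05, so the test cannot decide. Both pairs were picked with their values known, and each shift only restates the difference between 2 log2 changes already given.

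CASP9, the initiator of the mitochondrial pathway, gave different results on its probe sets. The brightest, 203984_s_at, read 202, 239 and 199 in the parental and 178, 192 and 240 in the mutated samples, with complete overlap and a log2 change of −0.068 (95% interval −0.36 to 0.22). The second, 210775_x_at, read 123, 124 and 120 against 138, 136 and 156. There the groups did not overlap and the change was 0.20 (limma, adjusted p = 0.036). This call was lost in 9 of 15 alternatives. With quantile normalization the change was 0.0097 (adjusted p = 0.91) and with median centring 0.12 (0.15). The adjusted p was 0.073 with no filter on dim probe sets and 0.069 with the replicate number as a block. Without parental replicate 1, 2 or 3 the adjusted p was 0.085, 0.074 and 0.099, and without mutated replicate 1 or 3 it was 0.054 and 0.063. Its dimmest probe set never exceeded 15.66 and was not tested. The dimmest of CASP8 stayed at or under 18.47 and that of CASP10 at or under 23.1, and these were not tested either.

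The rest of the pathway was read from lists of 57 genes, of which 48 had a tested probe set. Of these 19 rose, 12 fell and 17 did not pass, and their median log2 change was 0.030, beside 0.038 over all tested genes. The background was 30.1% of genes higher and 18.9% lower. The split depends on the scaling: quantile normalization gave 14 higher and 14 lower, and median centring 14 higher and 16 lower.

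Genes of the inflammasome and its output, the setting in which CASP1 works, rose in 5 of 10 tested, fell in 2 and did not pass in 3. Leaving out CARD16, whose probe sets were called in both directions, gave 4 of 9 higher, and leaving out IL18 as well 3 of 8, a choice made after seeing the data. PYCARD, which encodes the adaptor ASC that links sensors to caspase-1, rose by 1.48 on the log2 scale, from 171 ± 9.24 to 506 ± 24.7 (SD, n = 3; limma, adjusted p = 7.8e-06). IL18, a substrate of caspase-1, read 7.43, 5.49 and 4.6 in the parental samples, well under the median intensity of those arrays, and 75.3 ± 1.71 (SD, n = 3) in the mutated samples. Its probe set passed the filter on dim values through the mutated samples alone and its log2 change ran from 1.00 to 3.50 with the pseudocount, so no fold or p is given for it. CARD16 is counted as higher on its brighter probe set, with the direction uncertain as given above. IL1B (0.36), the other cytokine that caspase-1 matures, and the sensor NLRP1 (0.58) rose. Other sensor genes were lower: AIM2, which detects DNA in the cytosol, fell from 1816 ± 117 to 1064 ± 51.0 (SD, n = 3), and NLRP3 from 109 ± 9.56 to 64.9 ± 2.92. GSDMD, the pore-forming substrate, was 230 ± 4.13 in parental and 222 ± 10.9 in mutated cells (SD, n = 3) and did not pass (log2 change −0.049), nor did NLRC4 (0.11). CARD8 did not pass on its brightest probe set (0.012), but another of its 4 tested probe sets rose by 0.76 (limma, adjusted p = 1.2e-04) and the mean of its probe sets was called higher (0.26; limma, adjusted p = 0.019). Several of these genes are typical of myeloid cells, and the 5 myeloid markers summed to 63.25 to 69.45 in parental and 59.64 to 69.14 in mutated samples. Only 2 of the 5 were bright enough to be tested, and a link between these markers and the changes above was not tested.

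Of 20 tested genes for death receptors, ligands and adaptors, 9 rose, 3 fell and 8 did not pass. TNFRSF1A, the main receptor of TNF, rose from 163 ± 5.42 to 276 ± 3.65 (SD, n = 3), and TNFRSF10D, a decoy receptor of TRAIL, from 361 ± 22.4 to 543 ± 23.9. PIDD1, which encodes a scaffold that activates caspase-2, rose by 0.59. FAIM, an inhibitor of Fas signalling, fell from 1266 ± 43.1 to 771 ± 14.5 (SD, n = 3), with RIPK3 (−0.41), a kinase of necroptosis, and CRADD (−0.28), an adaptor of caspase-2. FAS itself was 2655 in parental and 2602 in mutated cells on average and did not pass (log2 change −0.029), while the dimmest of its 5 tested probe sets rose by 0.37 (limma, adjusted p = 0.018). Quantile normalization gave 4 higher and 4 lower in this list and median centring 4 higher and 6 lower, so its balance of rises and falls is not settled.

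The IAP family and its antagonists had 6 tested genes, of which 1 rose, 3 fell and 2 did not pass. BIRC5, survivin, which also serves cell division, rose from 1633 ± 53.0 to 2330 ± 49.5 (SD, n = 3). XAF1, an antagonist of XIAP, fell from 2419 ± 51.8 to 2027 ± 40.6 (SD, n = 3), BIRC6 by 0.42 and BIRC7 by 0.64. The BIRC7 call was lost without parental replicate 2 (limma, adjusted p = 0.053) or 3 (0.055) or mutated replicate 2 (0.055). BIRC2, which encodes cIAP1, did not pass (−0.040), nor did NAIP (−0.19).

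Among the apoptosome and mitochondrial factors 1 of 5 rose and 2 fell. APAF1, the scaffold that activates caspase-9, rose from 715 ± 14.2 to 997 ± 59.5 (SD, n = 3) on its brightest probe set, whereas its 2 other probe sets gave −0.28 and −0.092 and their mean did not pass (0.032; limma, adjusted p = 0.76). CYCS, cytochrome c, fell by 0.22 on its brightest probe set, with 0.076 and 0.22 on the others and 0.024 (limma, adjusted p = 0.70) as their mean. AIFM1 fell by 0.27, a call lost without parental replicate 1 (limma, adjusted p = 0.060) or 2 (0.058) or mutated replicate 2 (0.055) or 3 (0.051). HTRA2 (0.16) and ENDOG (0.048) did not pass. The list of caspase substrates and DNA fragmentation had 4 tested genes. DFFB (0.48) and DFFA (0.27), the nuclease of apoptotic DNA fragmentation and its inhibitor, rose, and ACIN1 (−0.55) and PARP1 (−0.17) fell. The call of PARP1 was lost in each of the 6 fits that left out 1 sample (limma, adjusted p 0.056 to 0.098). Of the other caspases, CASP4 was the one called among 3 tested, and CASP6 (−0.054) did not pass. CASP2 did not pass on its brightest probe set (−0.094), but it fell on 2 of its other 4 (−0.56; limma, adjusted p = 0.0048, and −0.32; adjusted p = 0.045). It was also called lower as the mean of its probe sets (−0.25; limma, adjusted p = 0.022) and with median centring (−0.17; adjusted p = 0.026).

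**Figure D4:**
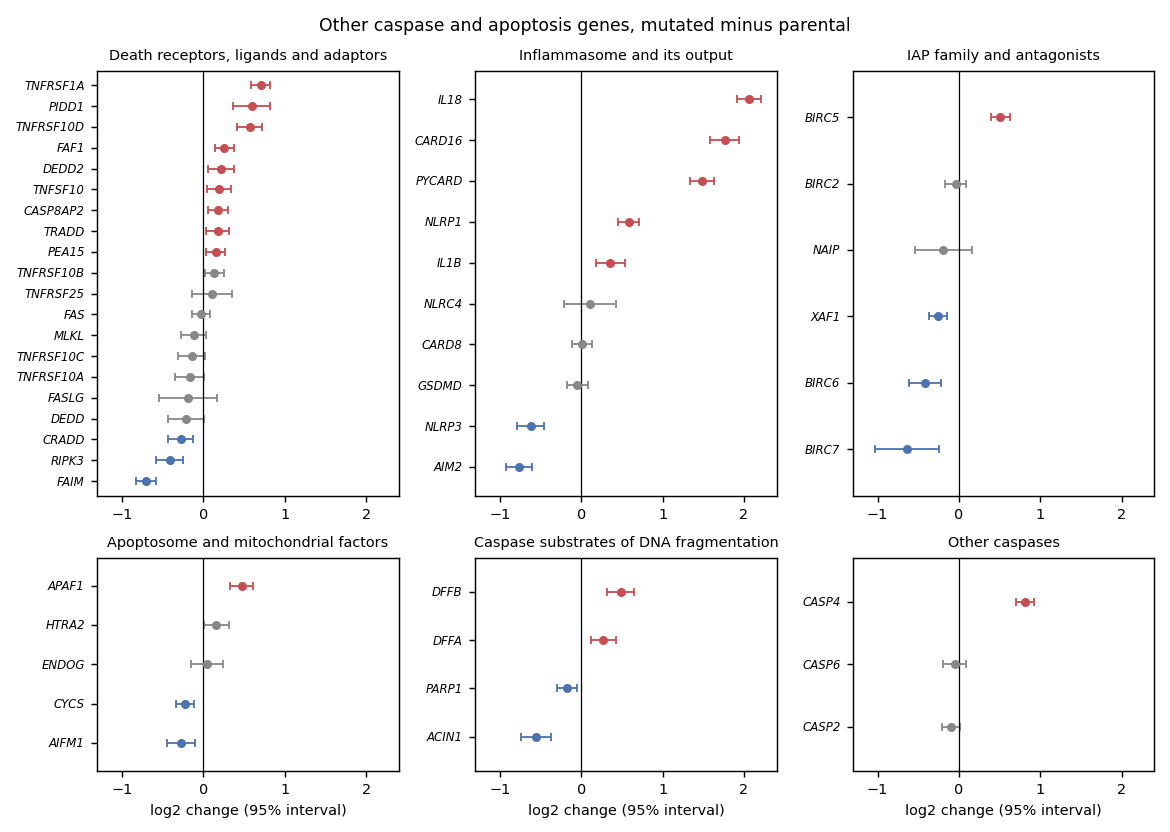
Log2 change (mutated minus parental, horizontal axis) with its 95% interval for the 48 tested genes of the 6 pathway lists, each on its brightest tested probe set; red is called higher, blue lower, grey did not pass. CARD16 (1.76, brighter probe set) and PYCARD (1.48) stand far to the right, the position of IL18 depends on the pseudocount because its parental values are dim, and AIM2 (−0.76) and FAIM (−0.70) farthest to the left.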

How the data were processed

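The authors deposited 1 linear intensity for each probe set and sample, in 6 columns. Their summary, background and scaling steps were not given in the sources used here. Detection calls were not used. Groups came from the sample titles. Values were transformed as log2(intensity + 16), which understates the change of dim genes. After dropping the dimmest 40% by mean, 32768 probe sets entered a two-sided limma 3.58.1 fit (R 4.3.3; lmFit, eBayes) with group alone in the model, Benjamini-Hochberg adjustment over all of them and a threshold of 0.05. Each gene was read on its brightest tested probe set with 1 symbol. Intervals are 95% intervals from limma. Arrays limit precision by their number. The procedure was also run on simulated data with independent noise in each sample. Such data cannot show how technical replicates or unknown scaling affect these results. Same-numbered samples were checked for pairing.

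The members and lists were chosen with earlier results of these data known. The rule for named genes took all members and up to 3 genes called in each direction per pathway list. It also took the neighbours up to 5 genes away, CXCR4 and the 3 genes most like the member with the smallest adjusted p. NLRP1, IL1B, the named cell type markers, every list member named as not passing and the within-array pairs were chosen after their values were seen. Lists of cell type markers were B cell, plasma cell, T cell and myeloid. Promoter sequences are from RefSeq. Plots used Python 3.11.15 with matplotlib 3.10.9.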

Additional observations from a re-analysis of the deposited data

How the results depend on the processing

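The alternatives were quantile normalization, median centring, no filter on dim probe sets, the lowest 60% left out, pseudocounts of 1 and 64, limma's trend and robust options, array weights, the replicate block, averaging the probe sets of a gene, leaving out the suffixes _s_at and _x_at, and each sample left out. CASP1, CFLAR and XIAP kept their direction and call on the gene's probe set in all 17. Leaving out 1 sample gave 20 to 22 member probe sets called, 3 member genes in each case (3 to 3), and 23 to 28 of the other genes, against 22, 3 and 31. Without the suffixes _s_at and _x_at, 5 member probe sets of 10 and 18 other genes of 31 were called. The main fit called 22 of 34 and 31 of 48, so fewer were tested and a smaller share was called. Over all genes 45.1% were called without these suffixes, against 49% in the main fit. CASP10 and CASP9, which did not pass in any setting on the probe set that represents the gene, changed sign: CASP10 to 0.020 with array weights, 0.031 without parental replicate 2 and 0.053 without mutated replicate 3, and CASP9 to 0.0099 without parental replicate 2, 0.017 without mutated replicate 1 and 0.067 as the mean of its probe sets. Over all leave-one-out fits CASP10 ran from −0.059 to 0.053 and CASP9 from −0.19 to 0.017. Leaving out CARD16, or CARD16 and IL18, a choice made after seeing the data, gave 30 and 29 other genes called. With the replicate number as a block 21 member probe sets, 3 member genes and 26 other genes were called. Same-numbered samples deviated together with r of 0.11, 0.027 and 0.11 across probe sets, so not every pair exceeded 0.1, and the numbers were not taken as pairs. Every sample correlated best with its own number, which is a hint from the data, not the design. The median log2 change over all genes moved from 0.038 to −0.027 with quantile normalization and −0.041 with median centring. Dim probe sets limit what can be seen: intervals of the dimmest tested members spanned from −0.44 to 0.35 (CASP10) and from −0.36 to 0.43 (CFLAR).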
